A study of Rattus norvegicus with 6 samples.

Results

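The 39 genes described here encode proteins that copy DNA in S phase, the part of the cell cycle in which the genome is duplicated, and were chosen by symbol from a list of replication genes. The choice was made with earlier results of these data known, so shares among the 39 genes are a description only. All 39 were present among the 24005 gene symbols of the deposited count file, and all 39 passed the filter on low counts that 15860 genes passed. The study sequenced messenger RNA of rat (Rattus norvegicus) common carotid arteries. The groups were 2 arteries collected 7 days after recanalization, 3 collected 1 day after it, and 1 normal artery that serves as the control. All 5 recanalized arteries had first been clotted with ferric chloride, which damages the endothelium by oxidation, and were then reopened by sonodynamic therapy (ultrasound acting on a sensitizing agent) combined with a treatment labelled physical-explosion therapy. The labels give no strain, sex or age. Clotted but untreated arteries, and treated arteries without a clot, are not among the groups, so injury and treatment cannot be told apart. Whether libraries of 1 time came from separate animals is not in the labels, and the p-values therefore cover sample-to-sample spread, which may be technical.

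A normal artery wall holds few dividing cells. When a cell commits to division, the E2F transcription factors are released from the retinoblastoma proteins and switch on the genes for the replication machinery and for the supply of deoxynucleotides. Origins are licensed when the origin recognition complex, Cdc6 and Cdt1 load the ring-shaped Mcm2-7 helicase; Cdc45 and the GINS complex then turn that ring into a working helicase, and polymerases, held on DNA by the sliding clamp PCNA, copy both strands. Smooth muscle cells of injured rat carotid arteries are a classical example of quiescent cells that re-enter this cycle.

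Library totals were 30078022 to 47240013 counts, and each of the 39 genes had at least 5 counts in every library. Values are CPM, read counts scaled to a common normalized library total. They compare a gene between libraries; levels of different genes are compared only in FPKM, the authors' length-scaled unit. The tissue carried smooth muscle, fibroblast and endothelial markers in every library. Day 1 replicate 1 stood apart. Pearson correlations across genes of log2(CPM + 1) set it closest to the control (0.961), ahead of day 1 replicate 3 (0.938) and replicate 2 (0.902); the last 2 correlated at 0.970 with each other. Whether its label is right was not tested, so results are given with and without it. In bulk tissue, fewer cells of a type and less RNA per cell cannot be told apart.

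The promoters of these genes were searched for the letters that E2F factors are known to bind, and 4 are shown here because their genes differed in fold change and in the number of matches. RefSeq promoter windows (build GRCr8, 250 bases before to 50 after the annotated start site) were matched by symbol for 32 of the 39 genes; Ccne2, Cdc6, E2f1, E2f2, Mcm4, Orc1 and Rrm2 had none. The E2F letters were searched as TTGGCGC, as the variant TTCGCGC, and as the further variants TTCCCGC and also TTGCCGC. At least 1 was found on either strand in 23 of the 32 genes (71.9%, Wilson 95% interval 54.6 to 84.4%). Of the 11228 genes tested that had a window, 1899 held a match (16.9%, 16.2 to 17.6%). Of all 27457 genes in the table, 2905 did (10.6%). The letters CCAAT, the core bound by NF-Y, were found in 19 of the 32 (59.4%), against 38.4% of the genes tested that had a window. Of the 47 E2F-type matches, 33 lay within 60 bases of the start site; 2 matches that overlap on opposite strands are counted separately, and 2 genes, Dut and Uhrf1, had several windows. The stretches from base -220 to base 20 follow, with E2F-type matches in capitals. They lie at chr3:160184700-160184939 (plus strand), chr19:13488593-13488832 (plus strand), chr12:22163159-22163398 (minus strand) and chr10:103544758-103544997 (minus strand).
Gins1: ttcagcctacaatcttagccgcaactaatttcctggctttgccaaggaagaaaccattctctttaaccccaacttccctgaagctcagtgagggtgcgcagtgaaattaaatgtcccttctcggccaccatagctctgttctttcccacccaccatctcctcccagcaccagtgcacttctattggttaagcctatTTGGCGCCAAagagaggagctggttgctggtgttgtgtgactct
Mcm5: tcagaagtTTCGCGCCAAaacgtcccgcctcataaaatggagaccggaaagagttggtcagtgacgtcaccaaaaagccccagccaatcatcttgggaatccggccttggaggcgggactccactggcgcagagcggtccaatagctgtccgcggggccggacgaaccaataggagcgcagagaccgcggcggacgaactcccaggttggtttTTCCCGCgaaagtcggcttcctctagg
Mcm7: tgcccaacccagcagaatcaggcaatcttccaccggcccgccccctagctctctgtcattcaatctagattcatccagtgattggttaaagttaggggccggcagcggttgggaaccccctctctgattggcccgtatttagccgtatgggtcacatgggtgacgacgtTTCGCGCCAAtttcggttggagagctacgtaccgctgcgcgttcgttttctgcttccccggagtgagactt
Tk1: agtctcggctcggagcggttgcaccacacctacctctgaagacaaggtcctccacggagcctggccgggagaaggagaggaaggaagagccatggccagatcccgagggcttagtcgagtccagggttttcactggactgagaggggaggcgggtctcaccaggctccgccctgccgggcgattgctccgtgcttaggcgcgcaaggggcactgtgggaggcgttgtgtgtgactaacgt

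Gins1, Mcm5 and Mcm7 each hold the pair of overlapping matches, and Tk1 holds none in the window. The 23 genes with a match had a median log2 fold change of 0.95 at day 1 against the control, ranging over 0.06 to 4.10, and the 9 genes with a window but no match had a median of 0.78, ranging over 0.07 to 2.99. At day 7 the medians against the control stood in the other order, at 0.78 for the 23 genes and 0.95 for the 9.

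**Figure D1:**
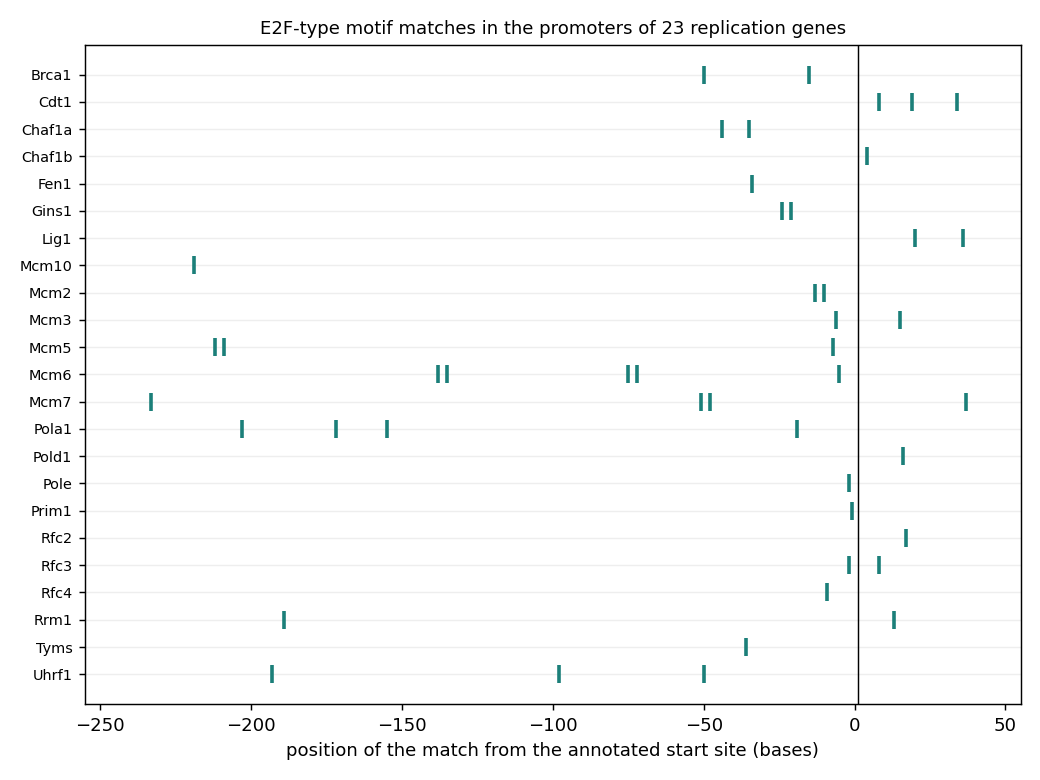
Positions of E2F-type motif matches in the promoter windows of the 23 replication genes that hold at least 1, 1 gene per line. The horizontal axis is the distance in bases from the annotated start site, marked by the vertical line, and each tick marks a match; 33 of the 47 matches lie within 60 bases of the start.

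The first comparison asks how replication genes stood in the artery 1 day after recanalization. They were higher than in the normal artery over most of the list, and unevenly so. Rrm2, Tk1, Uhrf1, Gins1 and Cdc6 stood between 7.97 and 17.5 times the control in the mean of the 3 libraries, while Prim1, Dut, Orc6, E2f2, Lig1 and Mcm7 stood between 1.04 and 1.16 times. In 31 of 39 genes each day 1 library was above the control, against 27.5% of all genes tested, and in 0 genes each was below it, against 27.2%. The 8 genes whose day 1 libraries lay on both sides of the control were Orc1, Orc6, Prim1, Rfc2, Lig1, Dut, E2f2 and Chaf1b. With day 1 replicate 1 left out, both remaining libraries were above the control in 35 of 39 genes, against 40.7% of all genes.

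The fitted log2 fold change was positive for all 39 genes, against 54% of the genes tested (45.8% negative), with a median of 0.88 beside 0.06 for all genes; without day 1 replicate 1 the median was 1.06, with 36 genes positive. By the edgeR quasi-likelihood test, 0 of 39 genes passed an adjusted p of 0.05, as did 0% of all genes, and the smallest edgeR adjusted p among the 39 was 0.385. At an unadjusted p under 0.05, 18 genes were higher and 0 lower, against 6.13% and 2.53% of all genes. DESeq2 called 11 genes higher, against 4.46% of all genes, and 0 lower, against 0.687%, and limma-voom called 0. Without day 1 replicate 1, edgeR called 7 genes higher, against 4.83% of all genes, and 0 lower, against 0.773%: Mcm3, Mcm5, Gins1, Pcna, Rrm2, Tk1 and Uhrf1. All 7 were also among the 11 that DESeq2 called on all 6 libraries, beside Cdc6, Cdt1, Mcm4 and Cdc45. The control is a single library, and the fit assumed that it varies like the others.

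The second comparison asks how the genes stood at day 7. Most were still above the normal artery, by less. In 31 of 39 genes both day 7 libraries were above the control, against 42.9% of all genes tested, and in 3 genes, Orc6, Prim1 and Rfc5, both were below it, against 36.2%. The remaining Pole, Lig1, Tyms, Dut and Chaf1a had 1 library on each side. The median log2 fold change was 0.66, beside 0.09 for all genes, and 33 genes were positive and 6 negative, against 54.8% and 45.1% of all genes. edgeR called 0 of 39 (0% of all genes), with 9 genes higher and 0 lower at an unadjusted p under 0.05 (6.12% and 3.97% of all genes); DESeq2 called 6 higher (3.9%) and 0 lower (1.08%) and limma-voom 0. Without day 1 replicate 1, which enters the pooled spread, edgeR called 1 gene, Rrm2, as higher, against 3.81% of all genes, and 0 as lower, against 0.577% (log2 fold change 2.58, edgeR adjusted p = 0.0453; over 12 alternatives 0.000284 to 0.765). In 27 of 39 genes all 5 recanalized libraries were above the control, against 20.1% of all genes.

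The third comparison sets day 7 against day 1. The level was lower at day 7 in both libraries than in each of the 3 day 1 libraries for 17 of 39 genes, against 16% of all genes tested, and higher for 1, E2f2, against 17.2%. The 17 include Rrm2, Tk1, Uhrf1, Pcna, Mcm4, Mcm5, Mcm10, Cdc45, Pole and Prim1. Against day 1 replicates 2 and 3 alone, 27 genes were lower at day 7, against 22.6% of all genes, and 1 was higher, against 24%. The median log2 fold change was -0.40, beside 0.00 for all genes, and 34 genes were negative and 5 positive, against 50.1% and 49.9% of all genes. edgeR called 0 genes (0% of all genes), DESeq2 called 0 (1.32% of all genes higher, 1.87% lower) and limma-voom called 0. At an unadjusted p under 0.05, 3 genes, Mcm4, Tk1 and Prim1, were lower and 0 higher, against 5.43% and 4.67% of all genes.

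**Figure D2:**
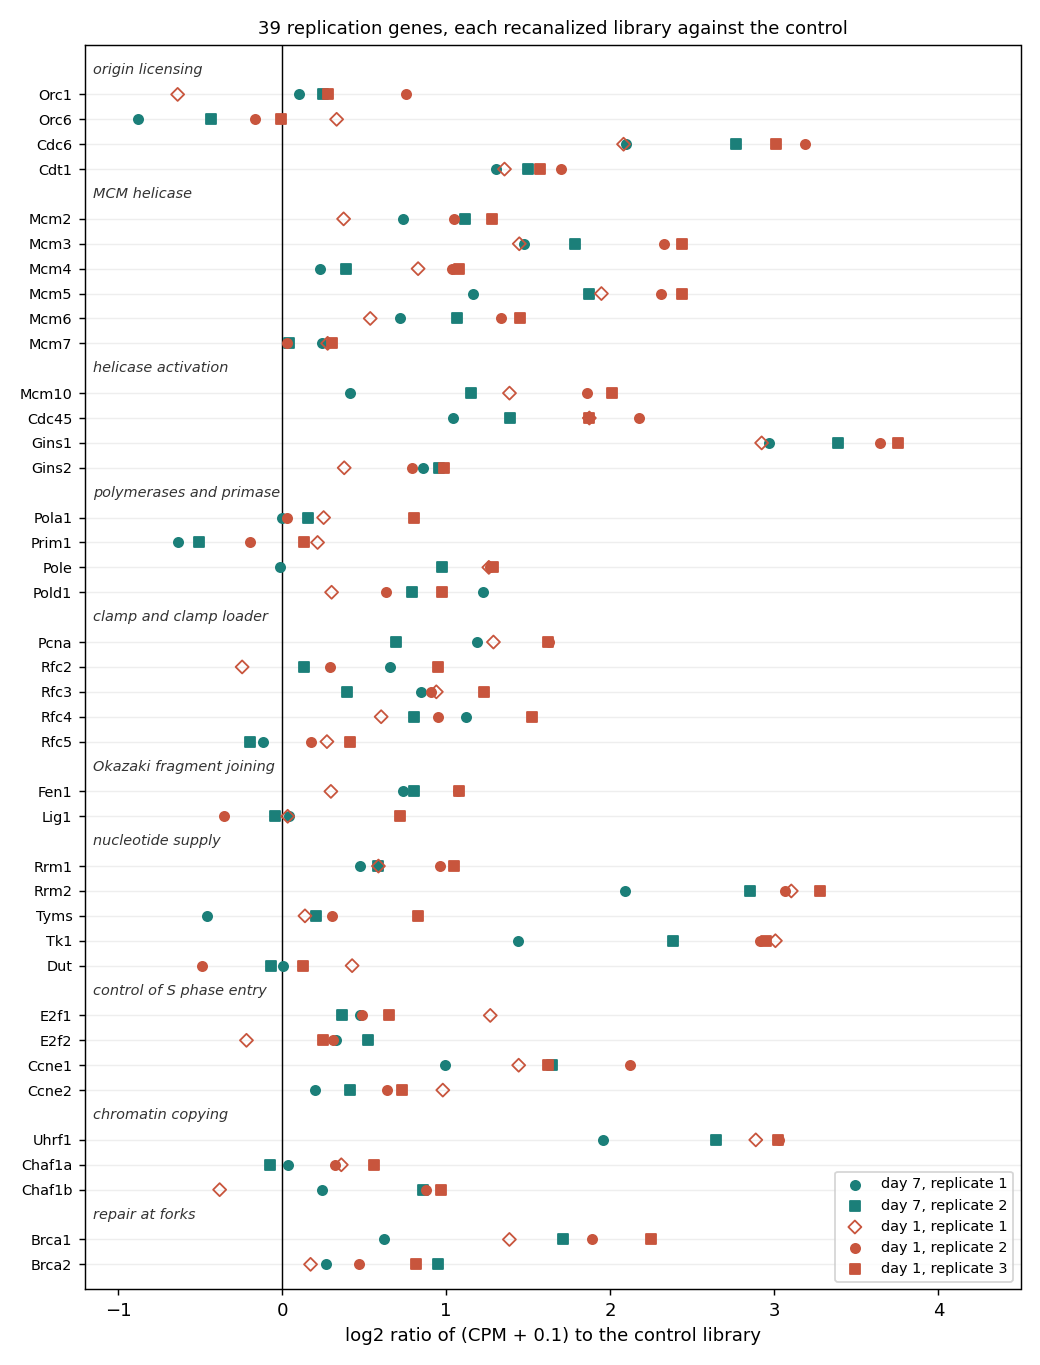
Log2 ratio of (CPM + 0.1) in each recanalized library to the control library for the 39 genes, grouped by role. Teal symbols are the 2 day 7 libraries, red symbols the 3 day 1 libraries with replicate 1 open, and the vertical line marks the control; Gins1, Rrm2, Tk1, Uhrf1 and Cdc6 lie farthest to the right and Orc6, Prim1, Dut and Lig1 around the line.

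Origin licensing split between the loaders and the recognition complex. Cdc6, the ATPase that helps load the helicase, had 1.72 and 2.79 CPM at day 7, 1.70, 3.76 and 3.32 CPM at day 1, and 0.325 CPM in the control, where it rests on 10 counts (exact Poisson 95% interval 0.156 to 0.597 CPM). Cdt1, its partner in loading, had 4.47 and 5.13 CPM at day 7, 4.64, 5.92 and 5.41 CPM at day 1, and 1.75 CPM in the control. Both were above the control in all 5 libraries, with log2 fold changes of 3.16 (SE 0.88) for Cdc6 and 1.60 (SE 0.49) for Cdt1 at day 1. Orc6, the smallest subunit of the origin recognition complex, had 3.35 and 4.59 CPM at day 7, 7.88, 5.55 and 6.22 CPM at day 1, and 6.23 CPM in the control. It was thus lower at day 7 than in every other library. Orc1, the subunit that comes and goes with the cell cycle in human cells, stayed within 1.76 to 4.78 CPM, with the control at 2.79 CPM inside that range.

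The 6 genes of the Mcm2-7 ring, which needs 1 copy of each subunit, did not move in equal measure. Mcm5 had 8.72 and 14.3 CPM at day 7, 15.05, 19.4 and 21.2 CPM at day 1, and 3.83 CPM in the control. Mcm3 had 12.1 and 15.03 CPM at day 7, 11.8, 21.9 and 23.7 CPM at day 1, and 4.29 CPM in the control. For both, the 5 recanalized libraries lay above the control, with day 1 log2 fold changes of 2.27 (SE 0.48) for Mcm5 and 2.16 (SE 0.54) for Mcm3; without day 1 replicate 1 they were 2.40 (edgeR adjusted p = 0.0390; over 12 alternatives 0.000593 to 0.726) and 2.41 (edgeR adjusted p = 0.0221; 0.00616 to 0.736). Mcm4 had 23.3 and 26.1 CPM at day 7, 35.4, 40.9 and 42.1 CPM at day 1, and 19.9 CPM in the control. It was near the control at day 7 and 1.99 times the control in the day 1 mean, with a log2 fold change of -0.68 (SE 0.21, edgeR adjusted p = 0.459) between the times. Mcm2 had 20.9 and 27.1 CPM at day 7, 16.2, 25.8 and 30.4 CPM at day 1, and 12.5 CPM in the control, and Mcm6 had 17.9 and 22.8, 15.8, 27.5 and 29.8, and 10.8 CPM in the same order. Mcm7, the subunit whose gene also holds the Mir25, Mir93 and Mir106b hairpins in the reference annotation, had 29.2 and 25.4 CPM at day 7, 29.9, 25.2 and 30.5 CPM at day 1, and 24.7 CPM in the control. Its 6 values lay within 1 narrow range.

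On the length-scaled FPKM scale, the level of the most abundant subunit was 3.88 and 2.06 times that of the least abundant at day 7, 3.06, 1.78 and 1.68 times at day 1, and 7.46 times in the control. In the control the extremes were Mcm7 at 9.80 FPKM and Mcm5 at 1.31 FPKM. The subunit levels lay closest together in day 1 replicates 2 and 3, where Mcm4 led at 12.8 and 13.1 FPKM and Mcm5 was lowest at 7.19 and 7.80 FPKM. This ratio was chosen after the values were seen, and a ratio within a library does not depend on the library scaling.

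**Figure D3:**
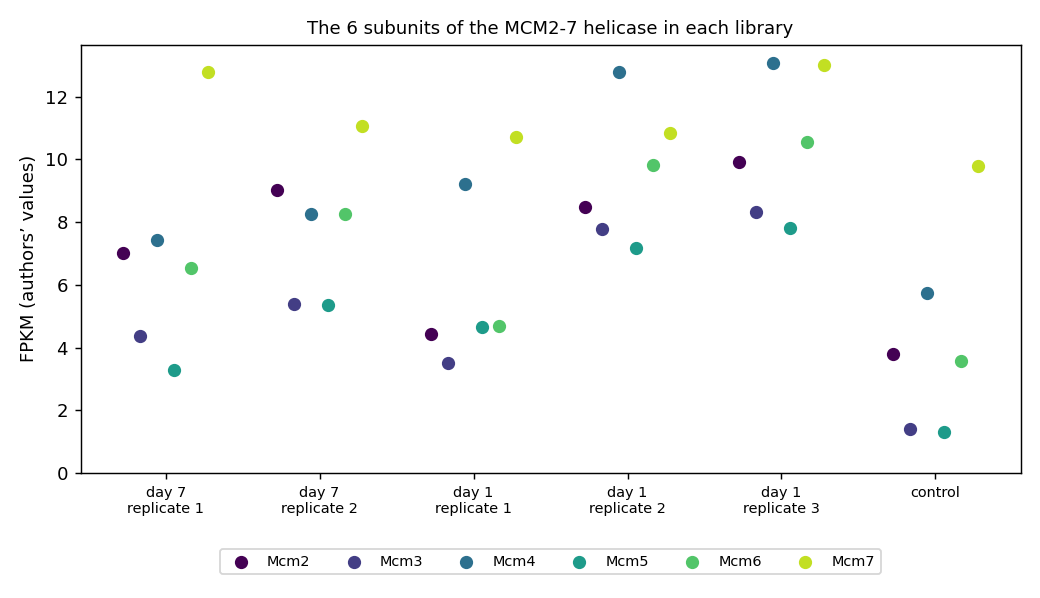
FPKM of the 6 Mcm2-7 subunits, as the authors gave it, in each library, with day 7 on the left, day 1 in the middle and the control on the right; each point is 1 gene in 1 library. The spread from lowest to highest subunit is 7.46-fold in the control and 1.68-fold in day 1 replicate 3.

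Factors that activate the loaded helicase had 0.152 FPKM (Gins1) to 0.559 FPKM (Cdc45) in the normal artery. They were not alone at this level, with Brca1 at 0.299 FPKM and Cdc6 at 0.114 FPKM. Gins1, a subunit of the 4-part GINS complex, had 1.95 and 2.64 CPM at day 7, 1.89, 3.18 and 3.45 CPM at day 1, and 0.162 CPM in the control. It had the highest fold of the 39 genes, with a day 1 log2 fold change of 4.10 (SE 0.85), but its control value rests on 5 counts (exact Poisson 95% interval 0.0527 to 0.379 CPM). Its log2 fold change without day 1 replicate 1 was 4.32 (edgeR adjusted p = 0.0335; over 12 alternatives 0.000522 to 0.726). Gins2, of the same complex, had 2.49 and 2.67 CPM at day 7, 1.76, 2.37 and 2.74 CPM at day 1, and 1.33 CPM in the control. Cdc45, which completes the active helicase, had 2.51 and 3.22 CPM at day 7, 4.55, 5.64 and 4.54 CPM at day 1, and 1.17 CPM in the control. Mcm10, needed to start unwinding, had 1.90 and 3.22 CPM at day 7, 3.81, 5.33 and 5.93 CPM at day 1, and 1.40 CPM in the control. The day 7 libraries of Cdc45 and Mcm10 lay between the control and all day 1 libraries. Their day 1 log2 fold changes were 2.07 (SE 0.56) and 1.84 (SE 0.64).

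The 4 polymerase and primase genes had a median log2 fold change of 0.54 at day 1, beside 0.88 for all 39 genes. The 2 genes of Okazaki fragment joining, described below, had the same median of 0.54. Of the 4, Pole stood highest at day 1, at 2.44 times the control in the mean. Pold1 stood highest at day 7, at 2.05 times. Pole, the catalytic subunit of the leading-strand polymerase epsilon, had 4.93 and 9.87 CPM at day 7, 12.04, 12.1 and 12.3 CPM at day 1, and 4.97 CPM in the control. The 3 day 1 libraries were almost equal, at 12.1 ± 0.122 CPM (mean ± SD, n = 3), while at day 7 replicate 1 was at the control level and replicate 2 well above it. Pold1, of the lagging-strand polymerase delta, had 13.8 and 10.2 CPM at day 7, 7.27, 9.16 and 11.7 CPM at day 1, and 5.88 CPM in the control. Prim1, the catalytic primase subunit that lays the RNA primers, had 16.8 and 18.4 CPM at day 7, 30.4, 22.8 and 28.7 CPM at day 1, and 26.1 CPM in the control. Prim1 at day 7 was thus below every other library, with a log2 fold change of -0.63 (SE 0.23, edgeR adjusted p = 0.484) against day 1. Pola1, the polymerase that extends those primers, ranged over 13.3 to 23.3 CPM in the 6 libraries, with the control at the low end.

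Pcna, the sliding clamp, was the most abundant of the 39 genes per length in every recanalized library. It had 60.7 and 42.9 FPKM at day 7, 53.2, 80.8 and 79.9 FPKM at day 1, and 24.2 FPKM in the control, where Dut stood higher at 33.8 FPKM. In CPM, Pcna had 66.4 and 47.3 at day 7, 71.3, 90.2 and 89.8 at day 1, and 29.1 in the control. The groups did not overlap, with a log2 fold change of 1.52 (SE 0.33) at day 1 and 0.96 (SE 0.33) at day 7 against the control. The day 1 value without day 1 replicate 1 was 1.63 (edgeR adjusted p = 0.0468; over 12 alternatives 0.00311 to 0.726). Of the subunits of replication factor C, which opens and loads the clamp, Rfc3 had 8.56 and 6.23 CPM at day 7, 9.13, 8.91 and 11.2 CPM at day 1, and 4.71 CPM in the control. Rfc4 had 7.6005 and 6.07 CPM at day 7, 5.28, 6.75 and 10.1 CPM at day 1, and 3.44 CPM in the control. Both were above the control throughout. Rfc5 had 6.66 and 6.32 CPM at day 7, 8.77, 8.20 and 9.69 CPM at day 1, and 7.24 CPM in the control. It was the 1 gene of the 39 above the control in all day 1 and below it in both day 7 libraries. That is close to the share among all genes, 2.54%. Rfc2 ranged over 6.21 to 14.4 CPM with the control at 7.37 CPM.

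The enzymes that finish Okazaki fragments, the short pieces of the lagging strand, did not stand out. Fen1, the nuclease that trims them, had 7.16 and 7.50 CPM at day 7, 5.25, 9.06 and 9.08 CPM at day 1, and 4.25 CPM in the control. Lig1, the ligase that joins them, had 8.62 and 8.14 CPM at day 7, 8.58, 6.54 and 13.8 CPM at day 1, and 8.38 CPM in the control. Fen1 was above the control in all 5 libraries and Lig1 on both sides of it.

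The genes of nucleotide supply ranged from Rrm2, which had the smallest p of the 39 genes against the control at both times, to Dut, which lay around the control. Rrm2, the small subunit of ribonucleotide reductase that is made in S phase, had 7.92 and 13.5 CPM at day 7, 16.1, 15.7 and 18.2 CPM at day 1, and 1.79 CPM in the control. Its day 1 mean of 16.7 ± 1.34 CPM (SD, n = 3) was 9.33 times the control and its day 7 mean of 10.7 ± 3.96 CPM (SD, n = 2) was 6.002 times, with log2 fold changes of 3.22 (SE 0.50, edgeR adjusted p = 0.385) and 2.58 (SE 0.49, edgeR adjusted p = 0.477). Without day 1 replicate 1 the day 1 value was 3.24 (edgeR adjusted p = 0.0235; over 12 alternatives 8.59e-08 to 0.726). Tk1, the salvage thymidine kinase, had 9.04 and 17.5 CPM at day 7, 27.1, 25.3 and 26.1 CPM at day 1, and 3.28 CPM in the control. The 3 day 1 libraries agree closely at 26.1 ± 0.876 CPM (SD, n = 3), above both day 7 libraries, with log2 fold changes of 2.99 (SE 0.51) at day 1 against the control and -0.98 (SE 0.34, edgeR adjusted p = 0.475) at day 7 against day 1. Without day 1 replicate 1 the first of these was 2.97 (edgeR adjusted p = 0.0309; over 12 alternatives 3.31e-06 to 0.726).

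Rrm1, the large subunit of the same reductase, had 41.9 and 45.3 CPM at day 7, 45.4, 58.9 and 62.5 CPM at day 1, and 30.2 CPM in the control, a day 1 log2 fold change of 0.88 (SE 0.29). In FPKM, the ratio of Rrm1 to Rrm2 was 4.44 and 2.82 at day 7, 2.36, 3.15 and 2.88 at day 1, and 14.2 in the control, so the small subunit was nearer to the large one in every recanalized library. Tyms, thymidylate synthase, had 6.98 and 11.1 CPM at day 7, 10.6, 11.9 and 17.1 CPM at day 1, and 9.61 CPM in the control. Dut, which removes dUTP, had 30.3 and 28.8 CPM at day 7, 40.6, 21.5 and 33.0 CPM at day 1, and 30.2 CPM in the control. Tyms was above the control in all 3 day 1 libraries and on both sides of it at day 7, and Dut was on both sides of it at both times. The FPKM ratio of Tk1 to Tyms was 0.822 and 1.00 at day 7, 1.62, 1.35 and 0.966 at day 1, and 0.217 in the control. These 2 ratios were chosen after the values were seen.

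**Figure D4:**
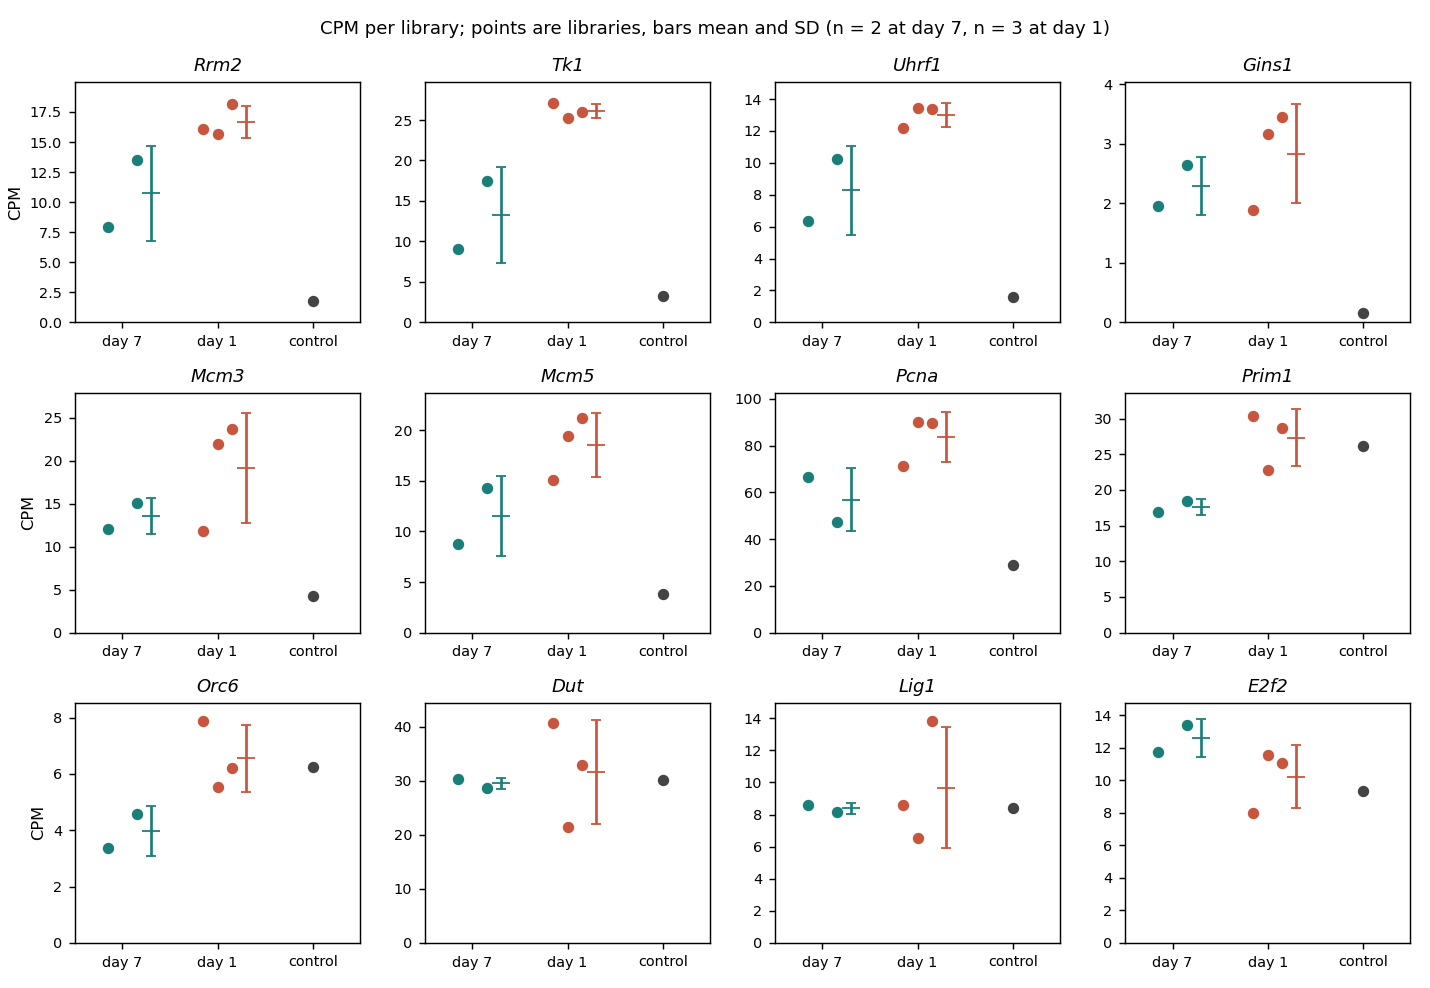
CPM of 12 replication genes in each library, with day 7 (n = 2) on the left, day 1 (n = 3) in the middle and the control (n = 1) on the right of each panel; points are libraries and bars are the mean and SD. The first 7 panels are the genes that edgeR called at day 1 without day 1 replicate 1, and the last 5 are genes that did not separate from the control at day 1, chosen after their values were seen.

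Among the genes that control entry into S phase, Ccne1 stood highest relative to the control, at 3.66 times in the day 1 mean, against 1.74 times for Ccne2, 1.80 times for E2f1 and 1.10 times for E2f2. The E cyclins activate Cdk2, and the E2F factors drive transcription of S phase genes. Ccne1 had 1.78 and 2.85 CPM at day 7, 2.47, 4.01 and 2.80 CPM at day 1, and 0.844 CPM in the control, a day 1 log2 fold change of 1.87 (SE 0.70). Ccne2 had 6.92 and 8.05 CPM at day 7, 11.9, 9.40 and 10.05 CPM at day 1, and 6.01 CPM in the control. E2f1 had 10.4 and 9.63 CPM at day 7, 18.1, 10.45 and 11.7 CPM at day 1, and 7.44 CPM in the control, and its value in day 1 replicate 1 was the highest. E2f2, another activating E2F factor, had 11.7 and 13.4 CPM at day 7, 8.005, 11.6 and 11.1 CPM at day 1, and 9.32 CPM in the control. It was the 1 gene whose day 7 libraries both exceeded all day 1 libraries.

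Of the genes that copy chromatin, Uhrf1, which brings the maintenance DNA methyltransferase to newly copied DNA, had 6.32 and 10.3 CPM at day 7, 12.2, 13.4 and 13.4 CPM at day 1, and 1.56 CPM in the control. The groups did not overlap, with log2 fold changes of 3.06 (SE 0.49) at day 1 and 2.41 (SE 0.49) at day 7 against the control. Leaving out day 1 replicate 1 gave 3.10 at day 1 (edgeR adjusted p = 0.0262; over 12 alternatives 2.79e-07 to 0.726). Chaf1a and Chaf1b, subunits of the CAF-1 complex that lays histones on new DNA, had day 1 means of 1.34 and 1.56 times the control. Chaf1a had 9.60 and 8.90 CPM at day 7, 12.04, 11.7 and 13.8 CPM at day 1, and 9.35 CPM in the control. Chaf1b had 1.64 and 2.55 CPM at day 7, 1.02, 2.59 and 2.77 CPM at day 1, and 1.36 CPM in the control. Brca1, which protects and repairs replication forks, had 3.05 and 6.62 CPM at day 7, 5.25, 7.49 and 9.63 CPM at day 1, and 1.95 CPM in the control, a day 1 log2 fold change of 1.93 (SE 0.70). Brca2, which also protects replication forks, had 6.70 and 10.8 CPM at day 7, 6.28, 7.71 and 9.85 CPM at day 1, and 5.55 CPM in the control. Both were above the control in all 5 libraries.

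Other genes of the pathway gave a like picture with more exceptions. Of 59 measured genes of a second list of replication, fork and S phase genes, 36 had each day 1 library above the control (27.5% of all genes) and 6 had each below it (27.2%); the median log2 fold change was 0.87. At day 7, 41 were above (42.9%) and 13 below (36.2%), with a median of 0.55. edgeR called 0 of the 59 in each comparison (0% of all genes). At an unadjusted p under 0.05, 17 were higher and 0 lower at day 1, against 6.13% and 2.53% of all genes. By the same measure 13 were higher and 2 lower at day 7, against 6.12% and 3.97%, and 0 were higher and 7 lower at day 7 against day 1, against 4.67% and 5.43%. Without day 1 replicate 1, edgeR called 6 of the 59 higher at day 1, against 4.83% of all genes: Ccna2, Top2a, Asf1b, Wdhd1, Gmnn and Samhd1.

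Ccna2, the cyclin of S phase and G2, had 6.86 and 11.97 CPM at day 7, 29.1, 21.1 and 19.4 CPM at day 1, and 3.70 CPM in the control. Top2a, the topoisomerase that untangles copied DNA, had 16.1 and 27.2 CPM at day 7, 67.8, 38.6 and 44.7 CPM at day 1, and 8.86 CPM in the control. In both, day 1 replicate 1 was the highest library. E2f8, a repressor that limits E2F targets, had 1.42 and 2.03 CPM at day 7, 4.32, 4.32 and 3.22 CPM at day 1, and 0.455 CPM in the control. Asf1b, a histone chaperone, had 2.67 and 3.28 CPM at day 7, 3.84, 5.98 and 5.60 CPM at day 1, and 0.779 CPM in the control. Slbp, which binds histone mRNA, had 28.8 and 26.03 CPM at day 7, 28.5, 29.04 and 33.1 CPM at day 1, and 13.3 CPM in the control. Slbp was nearly the same at both times and above the control in all 5 libraries. Cdc7, the kinase that fires origins, had 4.59 and 6.14 CPM at day 7, 8.68, 7.12 and 5.47 CPM at day 1, and 1.40 CPM in the control. Timeless, of the fork protection complex, had 10.05 and 10.9 CPM at day 7, 5.12, 6.91 and 9.50 CPM at day 1, and 3.08 CPM in the control, and was highest at day 7. Bard1, the partner of Brca1, had 2.47 and 4.28 CPM at day 7, 8.87, 6.26 and 7.18 CPM at day 1, and 4.68 CPM in the control, and was lowest at day 7. Gmnn and Samhd1 were added after their values were seen. Gmnn, geminin, which binds Cdt1 to stop a second round of licensing, had 3.51 and 3.55 CPM at day 7, 4.23, 10.3 and 5.99 CPM at day 1, and 0.974 CPM in the control. SAMHD1 degrades deoxynucleotides and is abundant in myeloid cells; Samhd1 had 9.89 and 9.14 CPM at day 7, 3.59, 25.99 and 17.8 CPM at day 1, and 2.60 CPM in the control. Samhd1 was near the control in day 1 replicate 1, and the part of myeloid cells in its values was not tested. Orc4 and Orc2, of the origin recognition complex, were the 2 genes of the list that were lower at day 7 than in the control at an unadjusted p under 0.05. Orc4 had 21.4 and 33.5 CPM at day 7, 44.9, 38.0 and 47.4 CPM at day 1, and 63.3 CPM in the control, and Orc2 had 23.7 and 22.0, 43.4, 32.6 and 33.2, and 41.0 CPM in the same order. Nasp, another histone chaperone, had 22.1 and 22.6 CPM at day 7, 51.3, 49.4 and 39.1 CPM at day 1, and 29.6 CPM in the control, so that its day 7 libraries were below all others.

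The marker lists show what else differed between these libraries. The 9 macrophage markers summed to 6061 and 4921 CPM at day 7, 44.0, 5791 and 2501 CPM at day 1, and 76.3 CPM in the control, and their median log2 ratio to the control was -1.83 in day 1 replicate 1. The 39 replication genes summed to 453 and 491 CPM at day 7, 549, 605 and 689 CPM at day 1, and 324 CPM in the control. In day 1 replicate 1, where Cd68 was at 1.47 CPM and Adgre1 at 0.0320 CPM, the replication genes summed to more than in either day 7 library, and Rrm2, Tk1 and Uhrf1 were close to the other day 1 libraries. In the other 4 recanalized libraries macrophage transcripts and replication genes were both above the control, and the part of the first in the second was not tested. Mcm3, Cdc6 and Gins1 in day 1 replicate 1 were below the day 7 libraries and below day 1 replicates 2 and 3. The other genes with this order were Orc1, Mcm2, Mcm6, Gins2, Pold1, Rfc2, Rfc4, Fen1, E2f2, Chaf1b and Brca2. Day 1 replicate 1 also had the lowest median log2 ratio to the control over the 39 genes, at 0.59.

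The 8 genes of mitosis, among them Mki67 and Ccnb1, had a median log2 ratio to the control of 1.46 and 2.18 at day 7 and of 3.002, 2.76 and 2.88 at day 1. The same median over the 39 replication genes was 0.62 and 0.80 at day 7 and 0.59, 0.95 and 1.08 at day 1. The mitosis list was therefore the higher of the 2 in each library. The 8 smooth muscle markers had medians of -0.56 and -0.72 at day 7 and of -0.23, -1.95 and -1.30 at day 1, and haemoglobin and other red cell genes (6 markers) summed to 1721 and 150 CPM at day 7, 6997, 4007 and 3389 CPM at day 1, and 791 CPM in the control. The neutrophil markers (5) summed to 13.4 and 13.8 CPM at day 7, 23.5, 59.4 and 91.7 CPM at day 1, and 2.44 CPM in the control. Their median log2 ratios to the control were 2.45 and -0.29 at day 7 and 3.40, 4.43 and 5.56 at day 1. Csf3r alone had 12.1 CPM in day 7 replicate 2. The endothelial markers (7) summed to 1597 and 1133, 94.3, 928 and 238, and 1072 CPM in the same order. Vwf alone had 721 CPM in the control. The endothelial median log2 ratios were 1.25 and 0.34 at day 7 and -3.47, 1.39 and -0.06 at day 1. The T and NK cell markers (6 measured, 4 of them at 0 in the control) summed to 17.1 and 14.5 CPM at day 7, 1.54, 13.1 and 11.4 CPM at day 1, and 0.779 CPM in the control. The part of any of these lists in the replication values was not tested.

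**Figure D5:**
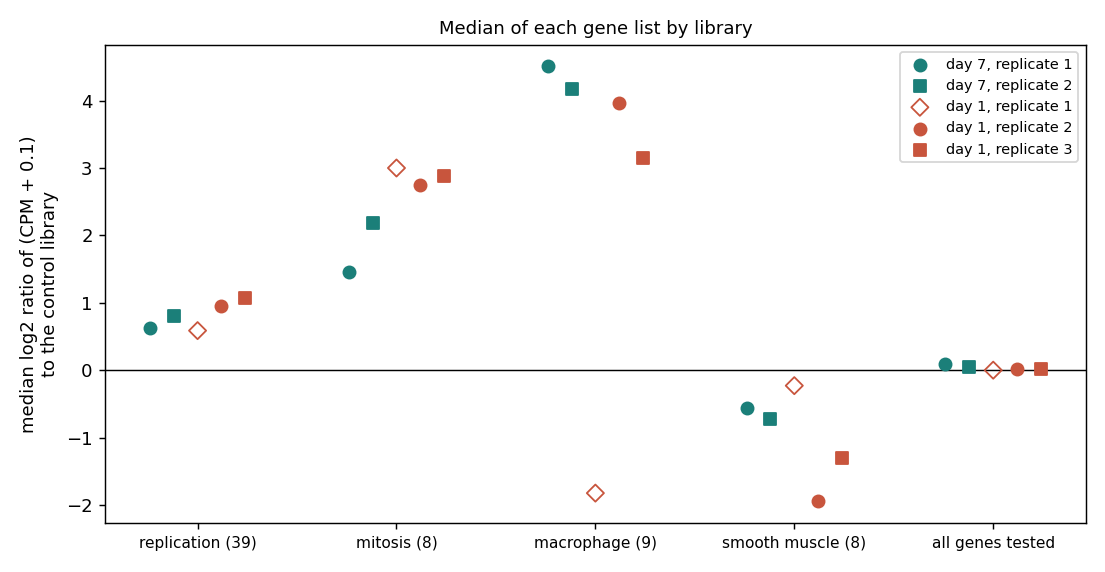
Median log2 ratio of (CPM + 0.1) to the control library for the 39 replication genes, 8 mitosis genes, 9 macrophage markers, 8 smooth muscle markers and all genes tested, by library. Teal symbols are day 7, red symbols day 1 with replicate 1 open; that library is at -1.83 for macrophage markers, 0.59 for replication genes and 3.002 for mitosis genes.

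Reads of close copies and neighbours could touch some of these values. In the reference annotation 9 of the 39 genes have named pseudogenes, Pcna, Tk1, Mcm4 and Rrm1 among them, and none of these 14 pseudogenes is a row of the count file. The locus of 7 genes overlaps another protein-coding gene, and the strand setting of the counting is not given in the sources used here. Rrm2 overlaps Cys1, which had 22.6 and 18.2 CPM at day 7, 21.6, 3.21 and 7.95 CPM at day 1, and 10.2 CPM in the control, an order of libraries unlike that of Rrm2. Uhrf1 overlaps Arrdc5, which was at most 0.0649 CPM in any library. Ints8, which overlaps Ccne2, and N4bp2l1, which overlaps Brca2, were above the control in all 5 recanalized libraries, as Ccne2 and Brca2 were. N4bp2l1 had 11.5 and 8.90 CPM at day 7, 3.91, 6.35 and 5.86 CPM at day 1, and 3.28 CPM in the control, and Ints8 had 27.6 and 35.4, 23.5, 27.7 and 23.7, and 22.3 CPM in the same order. Gse1, which overlaps Gins2, was below the control in all 5 libraries, and Tmem258, which overlaps Fen1, lay on both sides of it. The part of these neighbours in the values was not tested.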

How the data were processed

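Polyadenylated RNA was sequenced in 6 libraries. The deposited read counts per gene were made by the authors and are raw; the authors' FPKM values equal the counts scaled by library total and 1 length per gene (relative spread at most 2.18e-14 over 12848 genes). Per the submitters' processing notes the tools included StringTie 1.3.1, HISAT2, fastp 0.18.0 and Bowtie2 2.2.8; a genome build or annotation is not given in the sources used here.

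Genes passing filterByExpr by group (15860) were scaled by the trimmed mean of M-values (TMM) and tested by robust quasi-likelihood in edgeR 4.0.16 (R 4.3.3) in 1 fit with 3 group means, which leaves 3 residual degrees of freedom. p-values were adjusted by Benjamini-Hochberg over all genes tested, and a gene was called at an adjusted p under 0.05. SE values come from the fit, SD values from the libraries of a group. CPM values use the TMM factors; Poisson and Wilson intervals (95%) cover counting error only, and 3 counts correspond to 0.0598 to 0.0974 CPM. Log2 ratios of single libraries use CPM + 0.1. The fit was run on simulated counts with known changes, in which the control varied like the other libraries. That run therefore could not check this assumption, and it set no changes in genes of low mean level.

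The members and gene lists were chosen with earlier results of these data known. Library values are given for up to 3 genes of each role with the smallest unadjusted p and for genes whose sign went against their role; other genes, Mcm7 among them, were added after their values were seen. Fitted log2 fold changes of single genes are printed only where the unadjusted p was under 0.05, and for Rfc5; for some others the ratio of group means is given. Of the second list, the 5 genes with the smallest p in each comparison are given. The second pathway list held 60 symbols, 59 of them in the file. Alternatives were upper-quartile or median-of-ratios scaling, all genes unfiltered, DESeq2 1.42.0, limma-voom and limma-trend (limma 3.58.1) on log2 of FPKM plus 1 or 0.1, leaving out each recanalized library, and replicate numbers as a block. Promoter windows are from RefSeq, build GRCr8.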

Additional observations from a re-analysis of the deposited data

Results flagged for a closer look

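Of the 39 genes, 1 lay above the control in all 3 day 1 libraries and below it in both day 7 libraries. This is close to the share of 2.54% among all genes tested. The gene was Rfc5, a clamp loader subunit. Its log2 fold change at day 7 against day 1 was -0.45 (SE 0.28), which did not pass (edgeR adjusted p = 0.589; over 14 alternatives 0.406 to 1.00, at fold changes of -0.51 to -0.28).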

How the results depend on the processing

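The fold changes of 18 genes at day 1 and 9 at day 7 against the control, and of 4 at day 7 against day 1, kept their direction in all 216, 108 and 56 refitted values. Apart from Rfc5, these were the genes with an unadjusted edgeR p under 0.05 in the main fit. The refits reuse the same libraries, so a kept direction was likely from the way the genes were picked. Among the remaining genes, 5 of 252 refitted values changed sign at day 1, 15 of 360 at day 7 and 50 of 490 at day 7 against day 1, and none of those values lay outside -0.28 to 0.32. The number of replication genes called depended on the test and on day 1 replicate 1. DESeq2 called 11 at day 1 and 6 at day 7. Leaving out each library in turn gave 0 to 7 at day 1 and 0 to 1 at day 7, and 0 to 6 of the second pathway list at day 1; the values above 0 came without day 1 replicate 1, and the cause was not tested. Where 1 library of a time was left, it was assumed to vary like the others. The day 7 median of 0.66 against the control was 0.46 on log2(FPKM + 1) and 0.63 to 0.82 when a library was left out. The 2 E2F motifs TTGGCGC and TTCGCGC alone were found in 16 of the 32 replication genes with a window (50%). The shares were 6.90% of the genes tested that had a window and 4.12% of the table. With the title's replicate number as a block on the 5 recanalized libraries, 0 genes were called and the day 7 against day 1 median was -0.26; with the numbers of the column names, an alternative added after seeing the data, 0 were called and it was -0.46. Deviations of same-numbered libraries had a Pearson r of -0.05 and -0.06 by the titles, and of 0.06 and -0.008 by the column names. The 2 day 7 libraries deviate from their mean by equal and opposite amounts, so these values cannot show whether same-numbered libraries were paired. With 5 to 930 counts per gene in the control, and no second control, small differences were not detectable. Large ones did not pass either in edgeR on all 6 libraries, which called 0% of all genes in each comparison. Rrm2, at 9.33 times the control in the day 1 mean, had an edgeR adjusted p of 0.385.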

Other observations

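Genes that hold cells out of the cycle were mixed. Of 10 such genes, 3 had each day 1 library above the control (27.5% of all genes tested) and 3 had each below it (27.2%), with a median log2 fold change of 0.39; at day 7, 5 were above (42.9%) and 3 below (36.2%). edgeR called 0 of them in each comparison (0% of all genes), and at an unadjusted p under 0.05 found 1 higher and 0 lower at day 1 (6.13% and 2.53% of all genes), 1 higher and 1 lower at day 7 (6.12% and 3.97%), and 2 higher and 1 lower at day 7 against day 1 (4.67% and 5.43%).

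Cdkn1c, the Cdk inhibitor p57, had 37.8 and 25.8 CPM at day 7, 4.42, 15.8 and 6.73 CPM at day 1, and 5.71 CPM in the control, so both day 7 libraries were above all others (edgeR adjusted p = 0.462 against day 1). Cdkn1b, the inhibitor p27, had 91.5 and 79.03 CPM at day 7, 62.9, 38.2 and 57.5 CPM at day 1, and 91.4 CPM in the control, and was lowest at day 1. Cdkn1a, the inhibitor p21, did not separate the groups, at 186 and 80.1 CPM at day 7, 64.9, 104 and 91.9 CPM at day 1, and 97.5 CPM in the control. Btg1, an antiproliferative gene, had 159 and 153 CPM at day 7, 153, 282 and 211 CPM at day 1, and 86.0 CPM in the control. Foxo3, another of the 10 genes, had 60.7 and 44.9 CPM at day 7, 125, 65.0 and 97.4 CPM at day 1, and 130 CPM in the control. It was lowest at day 7, unlike Cdkn1c. Over the 10 genes the median log2 fold change at day 7 against day 1 was -0.01. Why Cdkn1c and the replication genes stood in opposite order at the 2 times was not tested.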
